A study of Homo sapiens with 24 samples.

Results

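The genes of homologous recombination and of the Fanconi anemia pathway were followed through all 24 libraries of a TNBC study. Members were the 33 genes FANCA, FANCB, FANCC, FANCD2, FANCE, FANCF, FANCG, FANCI, FANCL, FANCM, BRCA1, BRCA2, BRIP1, PALB2, BARD1, RAD51C, RAD51D, RAD51AP1, XRCC2, XRCC3, RAD54L, RAD54B, EXO1, BLM, RBBP8, RAD50, NBN, ATM, ATR, CHEK1, CHEK2, CLSPN and TOPBP1, found by symbol. Each was listed once in all 4 tables, which hold 19283 genes for Hs578T, 18248 for HCC70, 60651 for the depletion experiment and 23792 for the overexpression experiment. All 33 averaged 1 or more across the 6 libraries of each comparison, so all were tested everywhere.

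The study asked which genes mark breast cancer stem cells (BCSCs) and what the mitotic kinesin KIF20A does in them. Wild-type Hs578T and HCC70 cells, both established TNBC lines, were sorted into BCSCs, which were CD24–CD44+ and ALDH+, and non-BCSCs, which lacked both features. MDA-MB-231 cells, also an established TNBC line, carried either a control sgRNA (sgCtrl) or KIF20A sgRNA #1 (KIF20A sg1, whose genotype is labelled as knockdown), both delivered by lentivirus with selection. In another experiment, MDA-MB-231 cells carried an empty vector (EV) or were labelled KIF20A overexpression (KIF20A OE). Each of the 8 groups had 3 replicates, described as biological triplicates. Each experiment was treated here as its own batch, so that between Hs578T and HCC70 line and batch cannot be told apart. The MDA-MB-231 experiments were separate batches of the same line.

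Homologous recombination repairs double-strand breaks by copying an intact sister DNA molecule, and cells use it mainly in S and G2 phase. Nucleases first trim the broken ends, BRCA1, PALB2 and BRCA2 then prepare the single-stranded DNA, which invades the sister molecule where the sequence matches. In the Fanconi pathway, a nuclear core complex attaches ubiquitin to the FANCD2-FANCI pair at stalled replication forks, which starts the removal of crosslinks between DNA strands. Inherited mutations in several of these genes raise the risk of breast cancer, and tumors without BRCA function respond to PARP inhibitors.

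The samples were first checked against their labels. ALDH1A3, an aldehyde dehydrogenase, was at 280 to 296 TPM in Hs578T non-BCSCs and at 701 to 709.5 TPM in BCSCs. Its groups overlapped in HCC70 (84.6 to 91.8 and 90.6 to 105 TPM), as did those of CD44 in both lines. Of 9 breast and sort markers chosen, 5 were tested in Hs578T, and limma called 2 higher and 0 lower. In HCC70, 8 were tested and limma called 0, with 4 log2 fold changes above 0 and 4 below. KIF20A was listed at 153, 173 and 156 (reads divided by one factor per library, close to CPM) in sgCtrl and at 122, 145 and 91.1 in KIF20A sg1, so that the groups did not overlap, but the log2 fold change of -0.45 (standard error 0.16) had an adjusted p of 0.69 from limma. In the overexpression experiment, KIF20A was listed at 101, 143 and 124 CPM in EV and at 1348, 269 and 896 CPM in the KIF20A OE-labelled libraries. These libraries went against their labelled cell line. All 10 genes chosen as typical of MDA-MB-231 were lower in them (summed level 8616 to 9307 CPM in EV, as against 469 to 921 CPM), with CD44 at 0.125, 0.316 and 1.23 CPM. Of 10 genes chosen as markers of embryonic kidney cells, 9 were higher (summed level 0.905 to 4.82 CPM in EV, as against 1828 to 2377 CPM), and IRS4 was at 0 in every EV library. The wording "libraries labelled KIF20A OE" is therefore kept, and no difference in them can be assigned to KIF20A. Without these 3 libraries that comparison has no result.

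Position and sequence of the members were read from GRCh38. FANCD2 lies on chromosome 3 from 10026370 to 10101932 (plus strand), EXO1 on chromosome 1 from 241847967 to 241895148 (plus strand), XRCC2 on chromosome 7 from 152644776 to 152676193 (minus strand), RAD51C on chromosome 17 from 58692573 to 58735611 (plus strand) and FANCF on chromosome 11 from 22622533 to 22625823 (minus strand). Promoter windows from 250 bases before to 50 bases after the transcription start were available for 30 of the 33 members (RefSeq, GRCh38.p14). An E2F-type motif, spelled here as TTTCCCGC, TTTGGCGC, TTTCGCGC or TTTGCCGC on either strand, is known from promoters of genes that are transcribed for S phase. It was present in the window of 7 of the 30 members (23.3%) and of 908 of all 27305 promoters (3.3%). The CCAAT box (CCAAT, either strand) was present in 13 members (43.3%) and in 35.7% of all promoters. The cell-cycle element CHR, spelled TTTGAA or TTCGAA on either strand, was present in 3 members (10.0%) and in 16.6% of all promoters. None of these motifs contains another. The 7 members with the E2F-type motif are shown with the motif in capitals, each as 30 bases on the strand of its gene. Among them, FANCD2 has values per sample below in the sorted cells, and EXO1, XRCC2 and FANCD2 in the overexpression experiment. A tie between motif and change was not tested.
FANCD2, chr3:10026424-10026453, plus strand: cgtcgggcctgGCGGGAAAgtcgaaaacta
EXO1, chr1:241848197-241848226, plus strand: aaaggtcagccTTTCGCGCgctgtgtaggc
XRCC2, chr7:152676102-152676131, minus strand: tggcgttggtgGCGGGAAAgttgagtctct
FANCA, chr16:89816801-89816830, minus strand: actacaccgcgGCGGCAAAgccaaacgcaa
TOPBP1, chr3:133661930-133661959, minus strand: ccgcgcggttgGCGCGAAAgtcggttcccg
CLSPN, chr1:35769965-35769994, minus strand: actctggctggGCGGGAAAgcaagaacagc
FANCC, first match, chr9:95317863-95317892, minus strand: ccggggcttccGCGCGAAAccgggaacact
FANCC, second match, chr9:95317737-95317766, minus strand: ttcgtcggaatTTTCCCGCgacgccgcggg

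The window of FANCF held 2 CCAAT boxes and none of the other motifs. They are shown, with the box in capitals, because FANCF is the one member that was listed at 0 in a whole group.
FANCF, distal box, chr11:22625898-22625927, minus strand: catgcatttcgaCCAATagcattgcagaga
FANCF, proximal box, chr11:22625858-22625887, minus strand: ttcgcggatgttCCAATcagtacgcagaga

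The window of RAD51C, the member that was called in Hs578T and rose most in the overexpression experiment, held none of the 3 motifs. The 200 bases before its start, which hold no annotated exon, are printed without capitals for that reason. These matches describe letters in a window and are not evidence of a bound factor.
RAD51C, chr17:58692373-58692572, plus strand: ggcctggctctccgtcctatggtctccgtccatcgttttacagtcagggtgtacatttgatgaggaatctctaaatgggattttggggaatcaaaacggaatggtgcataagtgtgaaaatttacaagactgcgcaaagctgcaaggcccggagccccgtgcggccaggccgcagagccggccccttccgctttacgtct

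The tables of the sorted lines hold TPM, which are scaled for transcript length, so levels can be compared between genes there. The members were of middling abundance. Their median in non-BCSCs was 23.1 TPM in Hs578T and 36.9 TPM in HCC70, and the median of all genes tested was 21.9 and 25.0 TPM. In Hs578T non-BCSCs, NBN, which holds the MRN break-sensing complex at the break, was highest at 120 ± 8.10 TPM (SD, n = 3), and FANCC of the core complex was lowest at 6.00 ± 0.0974 TPM. In HCC70 non-BCSCs, NBN was again highest at 154 ± 8.91 TPM, next to TOPBP1, which activates the ATR kinase, at 149 ± 8.72 TPM, and the ranges of both overlapped. FANCF, an adaptor of the core complex, was lowest there at 6.26 ± 0.920 TPM. Most neighbors in this order could not be told apart, since 24 of the 32 neighboring pairs in Hs578T and 23 of 32 in HCC70 had overlapping ranges over the 3 non-BCSC libraries. Every member was carried by 197 reads or more in each sorted library. The median coefficient of variation between replicates was 5.93% and 4.10% in non-BCSCs and BCSCs of Hs578T and 6.11% and 5.43% in those of HCC70.

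**Figure D1:**
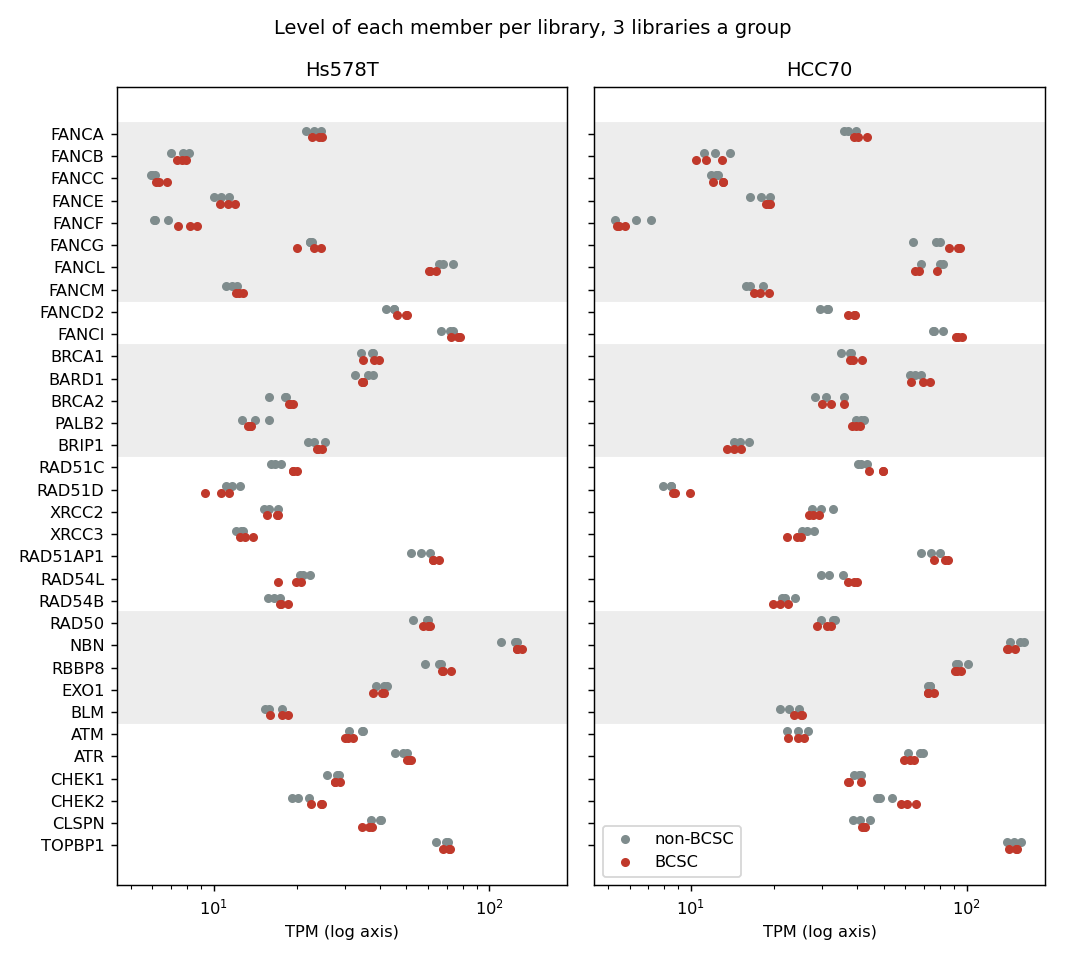
TPM (log axis) of the 33 members in each library of Hs578T (left) and HCC70 (right), ordered by role with alternating shading. Gray points are the 3 non-BCSC libraries and red points the 3 BCSC libraries; members range from about FANCC and FANCF at the low end to NBN at the high end, and the colors overlap for most of them.

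Sorted BCSCs of Hs578T and HCC70 differed little from non-BCSCs in these genes. In Hs578T, 1 of 33 members (RAD51C) was higher at an adjusted p under 0.05 and 0 were lower, with limma on log2(TPM + 1) adjusted over all 13324 genes tested. That is 3.03% of members, and 2.9% of all genes tested were called higher and 4.26% lower. In HCC70, 2 of 33 members (FANCD2 and FANCI) were higher and 0 lower, or 6.06%, where 2.28% of all genes were called higher and 0.552% lower. The Hs578T share is near that of all genes. The HCC70 share is above that of all genes but rests on 2 members. No other member was called by limma at these settings. At an unadjusted p under 0.05, 5 members were higher and 1 lower in Hs578T, where 8.98% of all genes were higher and 13.5% lower, and 6 were higher and 0 lower in HCC70, where 16.0% and 7.74% of all genes were. On recovered whole reads, edgeR called 5 members higher in Hs578T (RAD51C, FANCD2, FANCF, CHEK2 and RAD51AP1), beside 6.18% of all genes. In HCC70, edgeR called 2 (FANCD2 and FANCI), beside 3.13% of all genes. DESeq2 called 3 members higher in Hs578T (FANCD2, FANCF and RAD51AP1) and 4 in HCC70 (FANCD2, FANCI, FANCG and CHEK2). Of all genes with an adjusted p, DESeq2 called 5.43% and 4.72% higher. The median log2 fold change of the members was 0.05 in Hs578T and 0.03 in HCC70, beside -0.01 and 0.02 for all genes tested. Standard errors of single members were 0.05 to 0.08 and 0.05 to 0.10, so differences much smaller than those of the called genes were not detectable with 3 libraries a group.

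**Figure D2:**
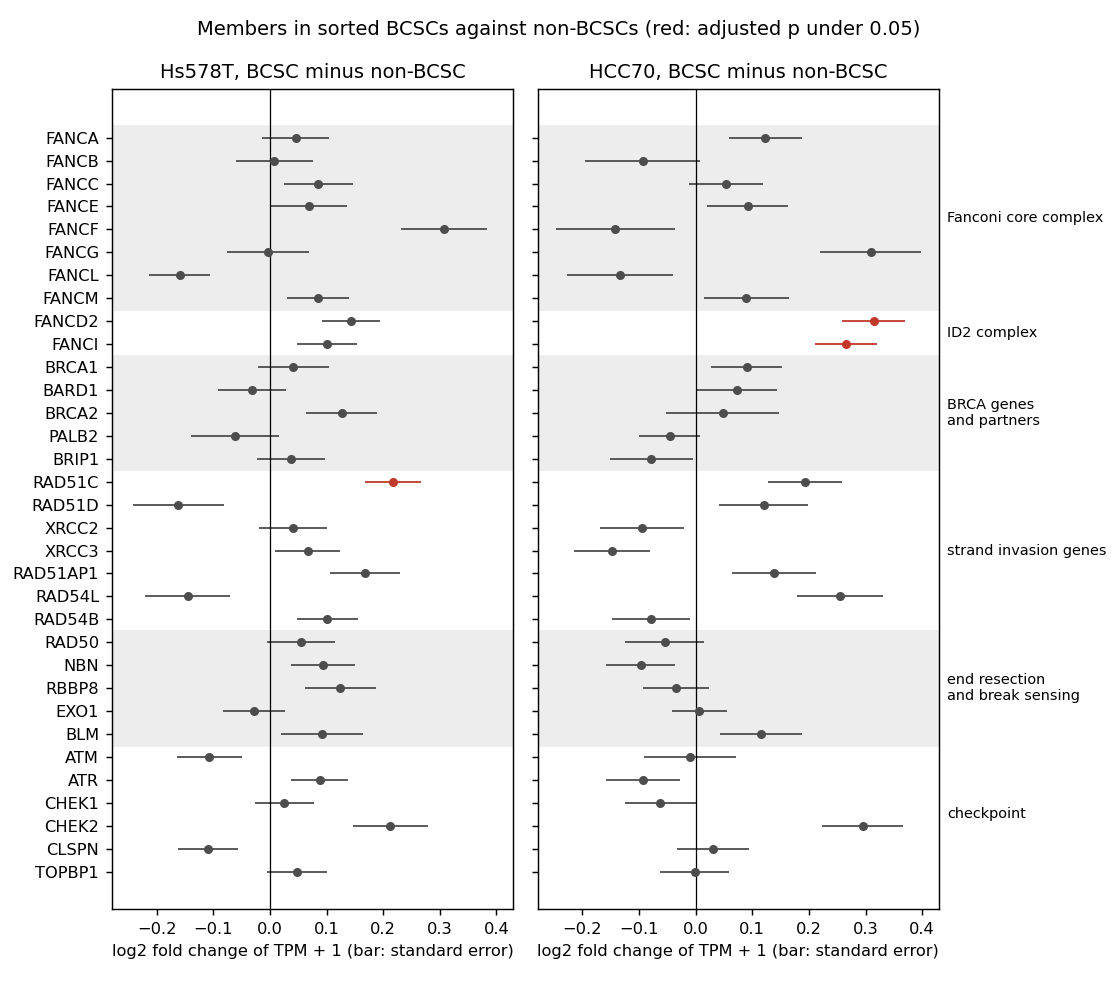
Log2 fold change of TPM + 1 (BCSC minus non-BCSC) for each member in Hs578T (left) and HCC70 (right), with standard errors as bars and roles shaded. Red marks the members with an adjusted p under 0.05, RAD51C at 0.22 in Hs578T and FANCD2 and FANCI at 0.31 and 0.27 in HCC70.

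The core complex, which carries the E3 ubiquitin ligase FANCL, held 8 members, and limma at the main settings called 0 of them in either line. FANCF was listed at 6.84, 6.14 and 6.08 TPM in Hs578T non-BCSCs and at 8.21, 8.71 and 7.42 TPM in BCSCs. All 3 BCSC values lay above all 3 non-BCSC values, but its log2 fold change of 0.31 (standard error 0.08) just missed the threshold (adjusted p = 0.053 from limma). FANCF was called higher in Hs578T by edgeR, by DESeq2, and by limma with the median of ratios or without BCSC replicate 3. In HCC70, FANCF was listed at 7.14, 5.31 and 6.33 TPM in non-BCSCs and at 5.38, 5.75 and 5.50 TPM in BCSCs, with overlapping groups and a log2 fold change of -0.14 (standard error 0.10). FANCL was listed at 73.6, 67.8 and 65.8 TPM in Hs578T non-BCSCs and at 63.7, 61.1 and 60.1 TPM in BCSCs, the one member whose BCSC values all lay below the others in that line (adjusted p = 0.13 from limma). FANCG, a scaffold of the complex, was listed at 64.0, 77.2 and 80.2 TPM in HCC70 non-BCSCs and at 93.3, 94.3 and 86.4 TPM in BCSCs. Its HCC70 groups did not overlap (adjusted p = 0.095 from limma), whereas its log2 fold change in Hs578T was -0.00. DESeq2 called FANCG higher in HCC70.

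FANCD2 and FANCI, the ID2 pair that the core complex ubiquitinates, were the members called in HCC70. FANCD2 was listed at 31.4, 29.5 and 31.2 TPM in HCC70 non-BCSCs and at 39.2, 37.0 and 38.9 TPM in BCSCs. All BCSC libraries were higher, and the ratio of the group means was 1.25 (log2 fold change 0.31, standard error 0.06, adjusted p = 0.034 from limma). FANCI was listed at 75.8, 75.6 and 82.2 TPM in non-BCSCs and at 96.3, 91.8 and 93.3 TPM in BCSCs. These groups did not overlap either, with a ratio of 1.20 (log2 fold change 0.27, standard error 0.05, adjusted p = 0.049 from limma). In Hs578T, FANCD2 was listed at 44.9, 45.0 and 42.2 TPM in non-BCSCs and at 50.1, 46.3 and 49.8 TPM in BCSCs, which also separated the groups without passing the test (log2 fold change 0.14, standard error 0.05, adjusted p = 0.15 from limma). FANCD2 was called higher there by edgeR, by DESeq2 and by limma with the median of ratios. FANCI had a log2 fold change of 0.10 there (standard error 0.05, adjusted p = 0.32 from limma) and overlapping groups. When non-BCSC replicate 1 was left out, FANCD2 alone was called in HCC70, and when any other single library was left out, 0 members were. In HCC70, edgeR and DESeq2 called both FANCD2 and FANCI. With limma, FANCI was lost there with a pseudocount of 0.1 (adjusted p = 0.051), with the median of ratios (adjusted p = 0.062) and with no minimum level (adjusted p = 0.067). FANCD2 was called in HCC70 in these settings.

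BRCA1, its ubiquitin ligase partner BARD1, BRCA2, the bridging protein PALB2 and the helicase BRIP1 were not called in either line. Their log2 fold changes ran from -0.06 to 0.13 in Hs578T and from -0.08 to 0.09 in HCC70. BRCA2, which acts on the trimmed single-stranded ends, had separated groups in Hs578T only, at 18.3, 18.1 and 15.8 TPM in non-BCSCs and 19.5, 19.0 and 18.7 TPM in BCSCs (log2 fold change 0.13, standard error 0.06, adjusted p = 0.29 from limma).

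RAD51C was the one that limma called at the main settings among the 7 strand invasion genes (RAD51C, RAD51D, XRCC2, XRCC3, RAD51AP1, RAD54L and RAD54B). RAD51C, which works in complexes with RAD51D, XRCC2 and XRCC3, was listed at 17.5, 16.7 and 16.1 TPM in Hs578T non-BCSCs and at 20.1, 19.4 and 19.5 TPM in BCSCs. Each BCSC library lay above each non-BCSC library, with a ratio of the means of 1.17 (log2 fold change 0.22, standard error 0.05, adjusted p = 0.040 from limma). The call was lost when any 1 of the 6 libraries was left out or when no minimum level was set (adjusted p = 0.063 from limma). RAD51C was called by edgeR (adjusted p = 0.033) but not by DESeq2 (adjusted p = 0.15), so that the 3 members DESeq2 called in Hs578T were others. In HCC70, RAD51C was listed at 43.4, 40.2 and 41.5 TPM in non-BCSCs and at 49.7, 44.1 and 49.8 TPM in BCSCs, again separated but short of the threshold (log2 fold change 0.19, standard error 0.07, adjusted p = 0.14 from limma). RAD54L, a motor protein that moves along DNA during strand invasion, had log2 fold changes of -0.15 in Hs578T and 0.25 in HCC70, neither of them called. RAD54L was listed at 20.5, 22.3 and 21.1 TPM in Hs578T non-BCSCs and at 19.8, 17.1 and 20.7 TPM in BCSCs, with overlap. In HCC70, RAD54L was listed at 29.7, 31.7 and 35.8 TPM in non-BCSCs and at 39.99, 37.1 and 39.1 TPM in BCSCs, without overlap (adjusted p = 0.10 from limma). XRCC3 was the one member whose HCC70 BCSC values all lay below the non-BCSC values, at 25.4, 28.1 and 26.3 TPM as against 25.1, 24.2 and 22.4 TPM (adjusted p = 0.23 from limma). Exons of KLC1 on the opposite strand cover 76.7% of the exon bases of XRCC3. Whether the counting used strand is not given in the sources used here, so the values of XRCC3 are uncertain. For RAD54L (LRRC41), FANCA (ZNF276) and CHEK1, opposite-strand exons cover 19.9%, 19.6% and 13.4% of the exon bases. The same limit applies to them.

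The genes of end resection and break sensing (RAD50 and NBN of the MRN complex, its partner RBBP8, the nuclease EXO1 and the helicase BLM) had log2 fold changes of -0.03 to 0.12 in Hs578T and -0.10 to 0.12 in HCC70, with 0 called. Among the 6 checkpoint genes, which signal breaks and stalled forks to the cell cycle, 0 were called by limma at the main settings. CHEK2, the kinase downstream of ATM, was listed at 20.3, 22.2 and 19.2 TPM in Hs578T non-BCSCs and at 24.8, 22.5 and 24.5 TPM in BCSCs. In HCC70, CHEK2 was listed at 48.4, 47.5 and 53.6 TPM in non-BCSCs and at 65.4, 61.0 and 57.6 TPM in BCSCs. It was separated in both lines without passing the test (log2 fold change 0.21, adjusted p = 0.10 in Hs578T, and 0.29, adjusted p = 0.066 in HCC70, both from limma). CHEK2 was called higher in Hs578T by edgeR, and in HCC70 by DESeq2 and by limma with a minimum mean of 10 TPM. CHEK1, ATR, CLSPN and TOPBP1 of the ATR branch had log2 fold changes between -0.11 and 0.09 in both lines.

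The lines share no samples, so they were compared directly. FANCD2, RAD51C and CHEK2, 3 of 33 members (9.09%), had every BCSC value above every non-BCSC value in both lines. This was the case for 3.44% of the 11668 genes tested in both lines. The opposite, all BCSC values lower in both lines, held for 0 members and for 1.05% of the genes. Within single lines, 11 members were separated upward and 1 downward in Hs578T (all genes 12.0% and 17.0%), and 7 upward and 1 downward in HCC70 (all genes 20.9% and 10.1%). With 3 values against 3, an exact permutation test of a single gene cannot give a two-sided p under 0.1, so separation alone is a description. Whether the BCSC difference itself depended on the line was tested by an interaction term over the 12 sorted samples, in which limma called 0 of 33 members, where 7.11% of 11668 genes were called. At an unadjusted p under 0.05, 4 members had a positive difference and 5 a negative one, beside 8.45% and 18.4% of all genes. The smallest p belonged to RAD54L, whose difference of log2 fold changes (Hs578T minus HCC70) was -0.40 (standard error 0.11, adjusted p = 0.051 from limma), followed by FANCF at 0.45 (standard error 0.13, adjusted p = 0.062 from limma), FANCG at -0.31 and XRCC3 at 0.21 (adjusted p = 0.13 and 0.14 from limma). RAD54L and FANCF lay at the threshold and were called under some settings.

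**Figure D3:**
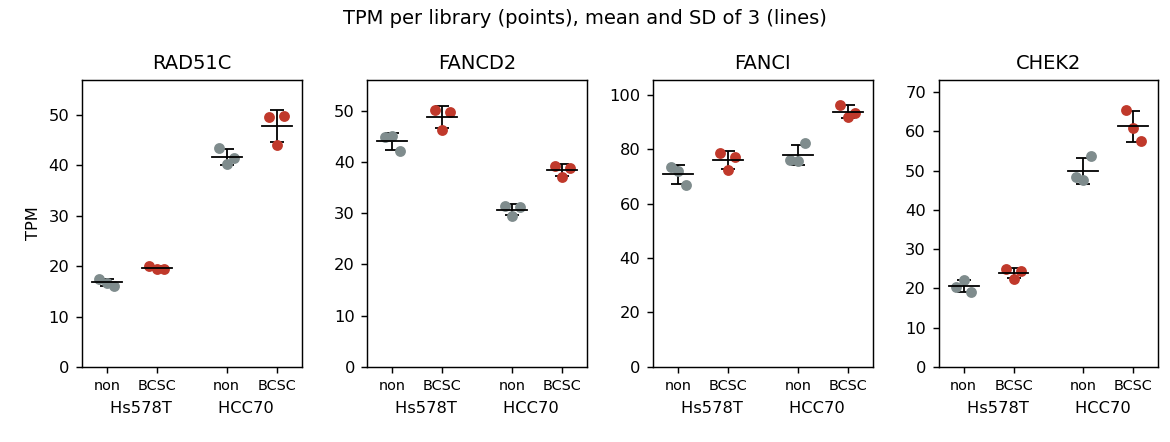
TPM of RAD51C, FANCD2, FANCI and CHEK2 in each sorted library (points), with the mean and SD of 3 libraries as lines; gray is non-BCSC and red is BCSC. All 3 BCSC points lie above all 3 non-BCSC points in both lines for RAD51C, FANCD2 and CHEK2, and in HCC70 alone for FANCI.

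Few other genes of the same pathways were called in the sorted cells. Of 57 further homologous recombination and Fanconi genes, all 57 were tested in Hs578T and 56 in HCC70, and limma called 0 in either direction (median log2 fold change -0.02 and 0.02). At an unadjusted p under 0.05, 2 were higher and 5 lower in Hs578T, and 9 were higher and 5 lower in HCC70. DESeq2 called 0 of them in Hs578T, and 3 higher and 3 lower in HCC70, and edgeR called 1 higher in each line. Of 14 end joining genes, which seal breaks without a template, XRCC4 was called in Hs578T (on average 35.0 TPM in non-BCSCs as against 43.1 TPM in BCSCs, log2 fold change 0.29, adjusted p = 0.025 from limma) and 0 in HCC70. Of a list of 30 S phase genes, limma called 0 in both lines (median 0.06 and -0.04), while DESeq2 called 4 higher in Hs578T, and 1 higher and 3 lower in HCC70. A list of 30 G2/M phase genes differed, with 27 higher and 0 lower in Hs578T (median 0.30) and 28 higher and 0 lower in HCC70 (median 0.57). The G2/M genes thus moved with the same groups in which RAD51C, FANCD2 and FANCI were called, and their part in those calls was not tested. Summed levels of fibroblast, endothelial and blood markers were 48.9 to 50.8 TPM in Hs578T non-BCSCs, 34.1 to 38.6 TPM in its BCSCs, and under 1 TPM in HCC70.

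In MDA-MB-231, KIF20A sg1 was compared with sgCtrl to see what changed when KIF20A was targeted. With limma over 12852 genes, 0 of 33 members were called, and the share of all genes called was 0.0%. At an unadjusted p under 0.05, 2 members were higher and 2 lower (all genes 2.28% higher and 4.72% lower), and these 4 had the smallest p of all members. On recovered reads, edgeR and DESeq2 each called 0 members as well. FANCE, which links the core complex to FANCD2, was listed at 50.8, 52.0 and 46.5 in sgCtrl and at 37.0, 36.8 and 37.6 in KIF20A sg1 (reads divided by one factor per library). FANCG was listed at 51.2, 48.2 and 44.0 in sgCtrl and at 41.2, 39.5 and 37.0 in KIF20A sg1. All KIF20A sg1 values of both genes lay under all sgCtrl values, with log2 fold changes of -0.41 (standard error 0.12) and -0.28 (standard error 0.12). ATR, the kinase that responds to stalled forks, was listed at 53.2, 46.9 and 57.9 in sgCtrl and at 67.3, 70.02 and 68.8 in KIF20A sg1. BRCA2 was listed at 36.0, 31.1 and 38.3 in sgCtrl and at 38.8, 51.5 and 50.2 in KIF20A sg1. ATR and BRCA2 were separated upward, with log2 fold changes of 0.38 (standard error 0.12) and 0.40 (standard error 0.15). The adjusted p of these 4 genes was 0.69 from limma for each, and none was called under any alternative tried.

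The members' values in this experiment moved with single control libraries. The sum over the members was 1578, 1443 and 1782 in sgCtrl and 1647, 1776 and 1760 in KIF20A sg1. In sgCtrl replicate 3, 26 of 33 members had the highest of the 3 sgCtrl values, and in sgCtrl replicate 2, 22 had the lowest. The median log2 fold change of the members was 0.11 (all genes 0.00), and 25 of 33 were above 0, beside 50.4% of all genes. This median was 0.20 without sgCtrl replicate 3 and 0.02 without sgCtrl replicate 2, so its size rested on which control was kept. Without sgCtrl replicate 3, 144 genes of the whole table were called, 7 higher and 137 lower, and 0 members were among them. The ID2 pair was separated upward (FANCD2 from 50.7 to 57.3 in sgCtrl and from 59.0 to 61.9 in KIF20A sg1, and FANCI from 128 to 138 and from 141 to 151), with log2 fold changes of 0.16 and 0.13 and standard errors of 0.12 and 0.11. Of the 33 members, 5 were separated upward and 2 downward. The share of all genes separated in this experiment was not determined, so these separations are descriptions only. All 5 BRCA genes and partners and all 6 checkpoint genes had log2 fold changes above 0, none of them called. Standard errors of members ran from 0.11 to 0.22, so a difference of the size seen in the sorted lines was not detectable here. Of 55 tested further homologous recombination and Fanconi genes, 13 end joining genes, 30 S phase genes and 29 G2/M genes, 0 were called by limma, edgeR or DESeq2. At an unadjusted p under 0.05, the further pathway genes held 2 higher and 3 lower, the end joining genes 0, the S phase genes 0 higher and 3 lower (median -0.05) and the G2/M genes 5 higher and 0 lower. Of the G2/M genes, 25 of 29 had log2 fold changes above 0 (median 0.23), beside the members' median of 0.11, and their part in it was not tested.

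**Figure D4:**
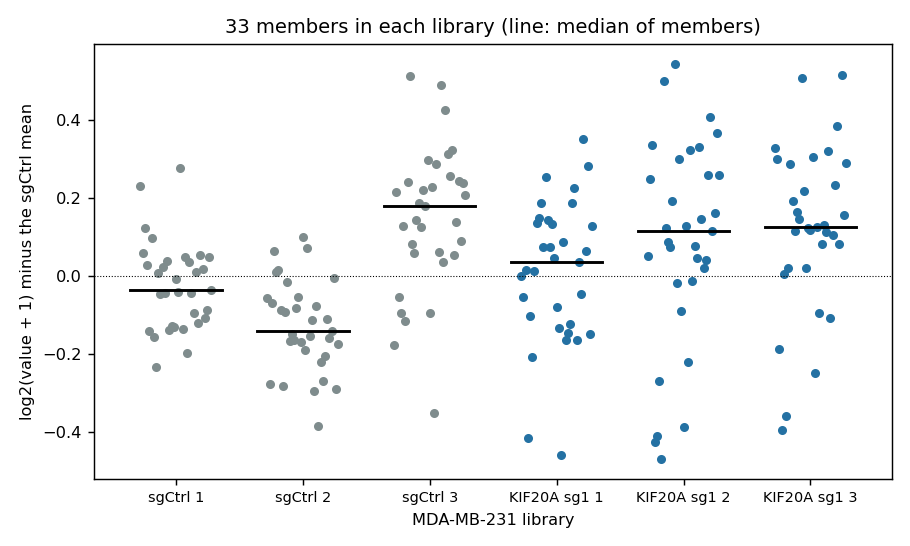
Log2(value + 1) of each of the 33 members minus its sgCtrl mean, in the 3 sgCtrl libraries (gray) and the 3 KIF20A sg1 libraries (blue) of MDA-MB-231; lines mark the median of the members. The sgCtrl medians run from -0.14 in replicate 2 to 0.18 in replicate 3, a spread that covers the KIF20A sg1 medians of 0.04 to 0.13.

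In the overexpression experiment, most members were higher in the KIF20A OE-labelled libraries than in EV. With limma over 15265 genes, 23 of 33 members were higher and 3 lower, or 69.7% and 9.09%, where 46.2% and 23.4% of all genes were called. The median log2 fold change of the members was 1.00, and that of all genes was 0.37. Because most of all genes differed, the scaling matters here. When the values were rescaled by the median of ratios, all genes had a median of 0.03 and the members one of 0.64. Then 19 members were higher, where 33.8% of all genes were, and 24 were called in either direction, where 66.8% of all genes were. Of all called genes, 66.3% were higher as deposited and 50.6% after rescaling. Relative to the deposited median of all genes, 25 members lay above it and 8 below, and only FANCG, ATR and CLSPN, none of them called, had log2 fold changes whose sign turned with the rescaling. In bulk samples, fewer cells of a type and less RNA per cell cannot be told apart, and these libraries went against their labelled line as given above.

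The 5 largest rises were those of RAD51C, EXO1, BLM, XRCC2 and FANCD2. RAD51C was listed at 6.90, 8.55 and 13.1 CPM in EV and at 82.4, 75.9 and 90.3 CPM in the KIF20A OE-labelled libraries (log2 fold change 3.04, standard error 0.22, 2.66 above the median of all genes, adjusted p = 7.08e-06 from limma). EXO1, which extends the trimming of broken ends, was listed at 19.2, 37.9 and 28.2 CPM in EV and at 209, 209 and 178 CPM in the KIF20A OE-labelled libraries (log2 fold change 2.81, standard error 0.22). BLM, the helicase that dissolves joined molecules, was listed at 8.81, 22.9 and 17.1 CPM in EV and at 81.7, 80.9 and 87.5 CPM in the KIF20A OE-labelled libraries (log2 fold change 2.38, standard error 0.29). No EV value of these 3 genes reached a value of the libraries labelled KIF20A OE. XRCC2 was listed at 16.6, 24.1 and 25.2 CPM in EV and at 87.6, 127 and 73.0 CPM in the KIF20A OE-labelled libraries (log2 fold change 2.06, standard error 0.24). FANCD2 was listed at 20.3, 37.7 and 37.6 CPM in EV and at 118, 164 and 107 CPM in the KIF20A OE-labelled libraries (log2 fold change 2.02, standard error 0.26). Both were separated as well, and all 5 stayed called under every setting tried.

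FANCF was the extreme in the other direction. FANCF was listed at 11.7, 10.9 and 18.2 CPM in EV, from 245, 226 and 310 reads, and at 0 in all 3 libraries labelled KIF20A OE. A count of 0 allows up to 3 reads per library, or 0.135 to 0.188 CPM (mean 0.161 CPM), which covers counting error only. By the group means (13.6 CPM in EV), FANCF was at least 84.4-fold lower in the libraries labelled KIF20A OE. This bound leaves out the spread between EV libraries. The other 2 called falls were smaller. ATM, the kinase that senses double-strand breaks, was listed at 95.6, 119 and 103 CPM in EV and at 76.6, 60.5 and 65.8 CPM in the KIF20A OE-labelled libraries (log2 fold change -0.64, standard error 0.14, adjusted p = 0.0033 from limma). FANCE was listed at 50.6, 62.7 and 54.4 CPM in EV and at 43.1, 36.0 and 39.1 CPM (log2 fold change -0.49, standard error 0.14, adjusted p = 0.012 from limma). The groups of ATM and FANCE did not overlap. Exons of GAS2 on the opposite strand cover 9.6% of the exon bases of FANCF, and GAS2 was at 2.76 CPM or less in every library of this experiment.

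The counts by role stand beside 46.2% of all genes called higher and 23.4% lower. The core complex was split, with 4 of 8 members higher (FANCA, FANCB, FANCL and FANCM) and 2 lower (FANCE and FANCF), which became 2 and 2 when rescaled by the median of ratios, as FANCL and FANCM were no longer called (adjusted p = 0.065 and 0.36 from limma). Both ID2 genes and all 5 BRCA genes and partners were higher, of which BARD1 was not called when rescaled (adjusted p = 0.19 from limma), and among the latter BRCA1 had a mean of 38.3 ± 15.0 CPM in EV as against 121 ± 8.66 CPM (SD, n = 3). Of the strand invasion genes, 6 of 7 were higher and RAD51D was not called. In end resection and break sensing, RAD50, EXO1 and BLM were higher, while NBN and RBBP8 had log2 fold changes of -0.26 and -0.31 that were not called as deposited and were called lower when rescaled. The exons of RAD50 share 76.9% of their bases with a longer gene on the same strand, and those of RAD54B share 66.0% with FSBP, so the values of both are uncertain. Among checkpoint genes, CHEK1, CHEK2 and TOPBP1 were higher, ATM was lower, and ATR and CLSPN were not called. The mean of CHEK2 was 15.2 ± 2.72 CPM in EV as against 49.1 ± 14.2 CPM, whereas CHEK1 passed narrowly (log2 fold change 0.40, standard error 0.16, adjusted p = 0.049 from limma). Rescaled, CHEK1 had a log2 fold change of 0.03 (adjusted p = 0.85 from limma), and its call was also lost with a pseudocount of 0.1, with no minimum level, and when any library but EV replicate 3 was left out. FANCL, FANCM, BARD1 and CHEK1 were not called by edgeR or DESeq2 either. Of the 7 members with the E2F-type motif shown above, FANCD2, EXO1, XRCC2, FANCA and TOPBP1 were called higher. CLSPN and FANCC were not called. RAD51C and BLM, among the 5 largest rises, do not carry the motif. Of all 33 members, 69.7% were called higher, and a tie between motif and change was not tested.

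**Figure D5:**
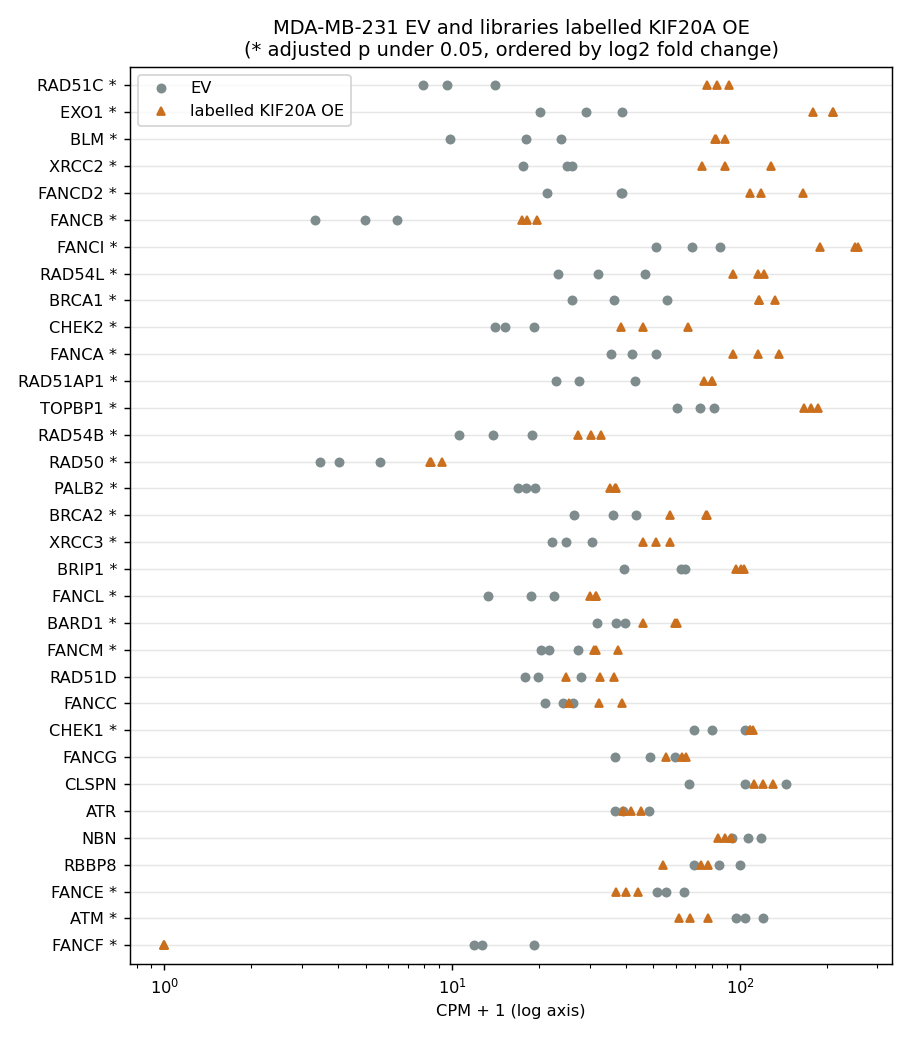
CPM + 1 (log axis) of the 33 members in each EV library (gray circles) and each library labelled KIF20A OE (orange triangles), ordered by log2 fold change, with stars for an adjusted p under 0.05. RAD51C, EXO1 and BLM stand at the top with separated groups, and FANCF at the bottom has all 3 triangles at a CPM of 0.

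The EV libraries were not alike in these genes. The members summed to 1038, 1558 and 1343 CPM in EV and to 2623, 2513 and 2500 CPM in the KIF20A OE-labelled libraries, and EV replicate 1 had the lowest of the 3 EV values for 31 of 33 members. Without EV replicate 1, 21 members were higher and 4 lower. The median coefficient of variation over members was 24.7% in EV and 9.06% in the KIF20A OE-labelled libraries. Of 56 tested further homologous recombination and Fanconi genes, 34 were higher and 5 lower (median 0.65), and edgeR on recovered reads called 22 and 8. The largest were POLN, a DNA polymerase that was under 0.2 CPM in each EV library and at 8.70, 6.99 and 6.85 CPM in the KIF20A OE-labelled libraries, then POLQ (11.9 CPM in EV and 64.0 CPM on average), which joins ends through short matching stretches, TIPIN of the fork protection complex (12.3 and 59.8 CPM), and the nuclease subunit EME1 (11.9 and 53.6 CPM). Of 14 end joining genes, 8 were higher and 2 lower (median 0.51), which became 5 and 4 with edgeR and with DESeq2, among them XRCC6, a subunit of the Ku ring that binds broken ends, at 435 and 920 CPM on average. Of the 30 S phase genes, 27 were higher and 0 lower (median 1.38), and of 29 G2/M genes, 11 were higher and 2 lower (median 0.36), which became 5 and 5 with edgeR. These lists moved with the same libraries as the members, and the embryonic kidney markers did so too. Their part in the members' differences was not tested.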

How the data were processed

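Poly-A RNA from 24 libraries was sequenced from stranded libraries. According to the submitters' processing notes, HISAT2 2.0.5 and featureCounts 1.5.0-p3 were used with GRCh38; the annotation is not given in the sources used here. The authors deposited TPM for Hs578T and HCC70, a signal for the depletion experiment (reads divided by one factor per library, column sums 977394 to 1028621) and CPM for the overexpression experiment. Recovered whole reads summed to 25432257 to 30531979 for each Hs578T library and 23687681 to 32387100 for each HCC70 library (without the 17 and 7 genes whose reads could not be recovered), 41424338 to 51018667 in the depletion and 15971297 to 22182293 in the overexpression experiment. At least 99.9% of values came out whole, within 0.05 of a read in the last 2 tables and 0.02 in the TPM tables.

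The main test was limma 3.58.1 in R 4.3.3 with a trend in the prior variance on log2(value + 1), for genes with a mean of at least 1, two-sided, each comparison alone, with Benjamini-Hochberg adjustment over all genes tested and a threshold of 0.05. Fold changes on this scale understate those of low genes. P values rest on the spread between these samples. The fits were also run on reads simulated with one fixed spread between replicates for all 4 comparisons. The members' median coefficient of variation was 5.93% in Hs578T non-BCSCs and 24.7% in EV, so the simulation does not give the error rates of each experiment. Alternatives were a pseudocount of 0.1, other minimums, the median of ratios, 2 count tests on the recovered reads, by edgeR 4.0.16 and by DESeq2 1.42.0, the tool named for the study, a replicate block, and each library left out. Positions and exon overlaps came from GENCODE 44.

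Members called in the sorted cells and the interaction, or the 4 with the smallest p where none passed, and up to 5 called rises and 5 called falls in the overexpression experiment (3 falls were called) were given per sample; other members were named after their values were seen. The members and all gene lists were chosen with earlier results of these data known. Python 3.11.15 was used for the tables (pandas 2.3.3, numpy 2.4.6) and the plots (matplotlib 3.10.9).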

Additional observations from a re-analysis of the deposited data

How the results depend on the processing

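Directions of all members named by rule held under every alternative tried. Counts of called members were 0 lower in both sorted lines and 0 in KIF20A sg1 under every alternative. In Hs578T, 1 member was higher. This count was 0 with no minimum and with the replicate block, 3 with the median of ratios and with DESeq2, and 5 with edgeR. It was 0 to 1 with a library left out. Of all genes, 386 of 13324 were higher in the main fit. No minimum gave 300 of 19283 and the replicate block 288 of 13324. The median of ratios called 620 of 13325, DESeq2 782 of 14409 and edgeR 877 of 14194. In HCC70, 2 were higher. This count was 1 with a pseudocount of 0.1, no minimum or the median of ratios, and 3 with a minimum mean of 10 TPM. It was 0 with the replicate block and 4 with DESeq2 (0 to 1 with a library left out). Of all genes in HCC70, 301 of 13218 were higher in the main fit. A pseudocount of 0.1 gave 290 and no minimum gave 147 of 18248. The median of ratios called 167 of 13209 and the replicate block 94 of 13218. A minimum mean of 10 TPM called 412 of 9596, and DESeq2 called 611 of 12935. In the libraries labelled KIF20A OE, 23 members were higher and 3 lower, beside 7055 and 3579 of all genes. With the median of ratios, edgeR and DESeq2, 19 members were higher and 5 lower. Of all genes, these settings called 5129 and 5007, 5673 and 5216, and 6266 and 5664. With a minimum mean of 10 CPM, 22 and 2 members were called, beside 4710 and 2710 of all genes. With a library left out, 21 to 25 members were higher and 3 to 4 lower. The interaction called 0 members, beside 174 genes with a positive and 656 with a negative difference. With the median of ratios, 2 members passed with a positive difference (ATR and FANCF), beside 333 of 11667 genes. With a minimum mean of 10 TPM, 1 passed with a negative one (RAD54L), beside 460 of 8017 genes. With a library left out, 0 to 1 members passed in either direction. The cause of these changes was not tested.

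Whether same-numbered samples were paired is not stated in the sources used here, and the main fits treated them as unpaired. Same-numbered samples correlated across genes, in deviations from their group means, by -0.161 to 0.185, and not over 0.1 in every pair of any comparison. With 3 libraries a group, such correlations cannot show whether a pairing existed. With the replicate block, RAD51C in Hs578T and FANCD2 and FANCI in HCC70 were not called, the libraries labelled KIF20A OE had 22 members higher and 3 lower, and the interaction and KIF20A sg1 had 0. All 3 EV libraries correlated best with their own number, a hint from the data alone, and this held for 1 HCC70 non-BCSC library and for 0 of the Hs578T non-BCSC and sgCtrl libraries.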
